A study of Mus musculus with 6 samples.

Results

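The olfactory receptor gene clusters of the mouse genome were examined for their chromatin accessibility in cells with and without the histone acetyltransferase HAT1. The clusters were taken as 9 fixed windows of mm10 on chromosomes 2 (36.0 to 37.6 Mb and 85.2 to 90.2 Mb), 7 (102.3 to 108.9 Mb), 9 (37.6 to 40.3 Mb), 10 (128.9 to 130.1 Mb), 14 (50.0 to 50.9 Mb), 16 (58.6 to 59.6 Mb), 17 (37.4 to 38.5 Mb) and 19 (12.3 to 13.9 Mb). A tested accessible site belonged to a cluster when its midpoint lay in the window, which gave 729 of the 229903 sites. The windows covered 21.7 Mb and held the starts of 725 of the 1135 protein-coding genes whose symbol begins with Olfr, together with 115 other protein-coding genes.

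The accessibility was measured by ATAC-Seq, in which a transposase inserts sequencing adaptors into open DNA, so that the reads at a site report how open it is. Both genotypes were primary mouse embryonic fibroblasts (pMEFs), cells grown directly from embryos, on a C57bl6 background. The 3 HAT1+/+ lines (labelled HAT1 WT) carried the intact gene and the 3 HAT1-/- lines (labelled HAT1 KO) lacked it, and neither received a further treatment. The values used here were 1 mean level per genotype and site, on a log2 scale of normalized reads. No value of a single line entered the comparison, so there is no spread between lines and no test between genotypes, and every difference below is a description of these genotype means.

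Olfactory receptors are G protein-coupled receptors that sense odorants in the nose. Their genes form the largest gene family of the mouse and lie in long tandem arrays on many chromosomes. Each olfactory sensory neuron transcribes a single receptor allele, and in other cells the arrays are silent. They are typically AT-rich, often lie at the nuclear lamina, and in the olfactory epithelium carry the repressive histone mark H3K9me3. Fibroblasts are not expected to use these genes.

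Sites at the starts of marker genes were set beside the label of the cells. All 8 fibroblast genes of the marker list had a site within 1 kb of their start, with levels from 29.2 (Pdgfra) to 626 (Vim) normalized reads in HAT1+/+ and from 36.0 (Pdgfra) to 648 (Vim) in HAT1-/- cells. Of 5 genes of olfactory neurons, 4 also had such a site, with levels from 34.1 (Ebf2) to 437 (Gng8) reads in HAT1+/+ and from 17.9 (Ebf2) to 396 (Gng8) in HAT1-/- cells, and Cnga2, the olfactory cyclic nucleotide-gated channel, had none. The site at the start of Ptprc, the leukocyte antigen CD45, held 8.28 reads in HAT1+/+ and 13.0 in HAT1-/- cells. Of all protein-coding genes that are no receptors 71.9% had such a site, so these sites cannot decide the cell type. Over all tested sites the median level was 14.5 reads in HAT1+/+ and 13.8 in HAT1-/- cells and the median difference of HAT1-/- minus HAT1+/+ was -0.06 on the log2 scale. The depth of each line is not known from these values.

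The windows were not made of receptor genes alone. A receptor run was therefore defined as at least 3 consecutive protein-coding Olfr genes with no other protein-coding gene between them. The windows touched 30 such runs, and 162 of the 729 sites had their midpoint in a run. The other 567 sites lay between the runs or at the edges of the windows. The sequences of 5 sites in runs are shown first, because among the well-covered sites picked as the lowest or the highest of their window they are the 3 with the lowest and the 2 with the least low difference in a run. The sites at Olfr658, Olfr1226, Olfr877 and Olfr725 were each the lowest of their window, so their sign comes from that choice, and the site at Olfr111 was the highest of its window. Each line gives 200 bases around the midpoint of a site, from the forward strand of mm10 (GRCm38), with matches to the short motifs described at the end in capitals.
Site at the start of Olfr658, chr7:104647176-104647375: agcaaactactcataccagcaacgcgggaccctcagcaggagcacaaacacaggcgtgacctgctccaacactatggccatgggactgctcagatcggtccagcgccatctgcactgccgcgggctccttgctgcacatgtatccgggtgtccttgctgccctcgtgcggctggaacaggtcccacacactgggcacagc
Site in Olfr1226, chr2:89196537-89196736: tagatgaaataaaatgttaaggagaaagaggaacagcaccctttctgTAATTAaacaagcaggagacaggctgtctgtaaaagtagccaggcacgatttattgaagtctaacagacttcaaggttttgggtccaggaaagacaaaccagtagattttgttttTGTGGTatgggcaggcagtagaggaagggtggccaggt
Site upstream of Olfr877, chr9:37833444-37833643: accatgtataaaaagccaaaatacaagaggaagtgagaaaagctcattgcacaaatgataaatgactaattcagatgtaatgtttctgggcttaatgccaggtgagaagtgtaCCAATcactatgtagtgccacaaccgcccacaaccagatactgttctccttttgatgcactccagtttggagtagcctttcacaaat
Site upstream of Olfr725, chr14:50062363-50062562: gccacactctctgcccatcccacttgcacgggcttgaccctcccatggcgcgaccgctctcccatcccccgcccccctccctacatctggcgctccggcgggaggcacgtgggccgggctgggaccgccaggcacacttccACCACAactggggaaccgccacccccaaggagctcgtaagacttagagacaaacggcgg
Site beyond Olfr111, chr17:37538509-37538708: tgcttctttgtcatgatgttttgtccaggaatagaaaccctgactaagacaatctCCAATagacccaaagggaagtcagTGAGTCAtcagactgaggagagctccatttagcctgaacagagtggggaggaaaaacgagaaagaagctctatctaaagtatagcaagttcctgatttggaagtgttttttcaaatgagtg

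The first of these sites covered the start of Olfr658 (chr7:104647041-104647510), and its midpoint lay 30 bases inside the gene, in the annotated untranslated part of the first exon. Its level was 6.10 in HAT1+/+ and 3.83 in HAT1-/- cells on the log2 scale, or 68.6 and 14.2 normalized reads. This was a 4.82-fold lower level in HAT1-/- cells and the lowest difference (-2.27) among the receptor run sites. The 200 bases printed had 61.5% GC, no bases marked as repeats and no match to any motif searched.

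The site in Olfr1226 (chr2:89196410-89196862) lay in an annotated untranslated part of the gene, 3412 bases from its start, and went from 52.7 reads in HAT1+/+ to 20.1 in HAT1-/- cells (difference -1.39). A second site in an intron of the same gene (chr2:89198263-89198503), named after its value was seen, went from 4.07 to 2.83 on the log2 scale (-1.24). The 2 neighbouring sites thus differed in the same direction. The intergenic site 20726 bases upstream of Olfr877 (chr9:37833256-37833831) held 46.8 reads in HAT1+/+ and 22.6 in HAT1-/- cells (-1.05).

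The intergenic site 22087 bases upstream of Olfr725 (chr14:50061962-50062963) was the most GC-rich of the 5, with 68.5% GC in the printed bases. It held 113.8 reads in HAT1+/+ and 63.6 in HAT1-/- cells (-0.84). The intergenic site past the end of Olfr111 (chr17:37538444-37538773) was the highest of the well-covered sites in the chromosome 17 window, and it too was below 0, with 32 reads in HAT1+/+ and 27.1 in HAT1-/- cells (-0.24).

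Accessible sites were sparse in the receptor clusters as a group and in the receptor runs of each of them. The windows held 33.6 sites per Mb, against 109 per Mb in the 2 Mb on each side, a ratio of 0.307 (95% exact binomial interval 0.284 to 0.333). Within the windows the sites avoided the receptor genes themselves. The receptor runs held 10.2 sites per Mb over 15.93 Mb, and the rest of the windows held 98.3 per Mb over 5.77 Mb, close to the 84.4 per Mb of the genome. Receptor runs outside the windows were also sparse, with 19.4 sites per Mb. The intervals here and below treat sites as independent and cover counting error only.

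The density in the receptor runs was below that of the flanks in 9 of 9 clusters, and ranged from 3.31 per Mb on chromosome 16 to 17.6 per Mb on chromosome 7. The large cluster on chromosome 2 at 85 Mb, which held 222 receptor genes and 6 other genes in 5 Mb, was the emptiest window. It had 32 sites, or 6.40 per Mb, against 122 per Mb in its flanks. Its run from Olfr153 to Olfr1181, with 47 receptor genes in 0.894 Mb, had no site, and its run from Olfr996 to Olfr1095, with 68 genes, had 4. On chromosome 16 the whole window was as dense as its flanks (65 and 65.25 per Mb), but only 2 of its 65 sites lay in the receptor run. Of the 30 runs, 4 had no site and 11 had at most 2.

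**Figure D1:**
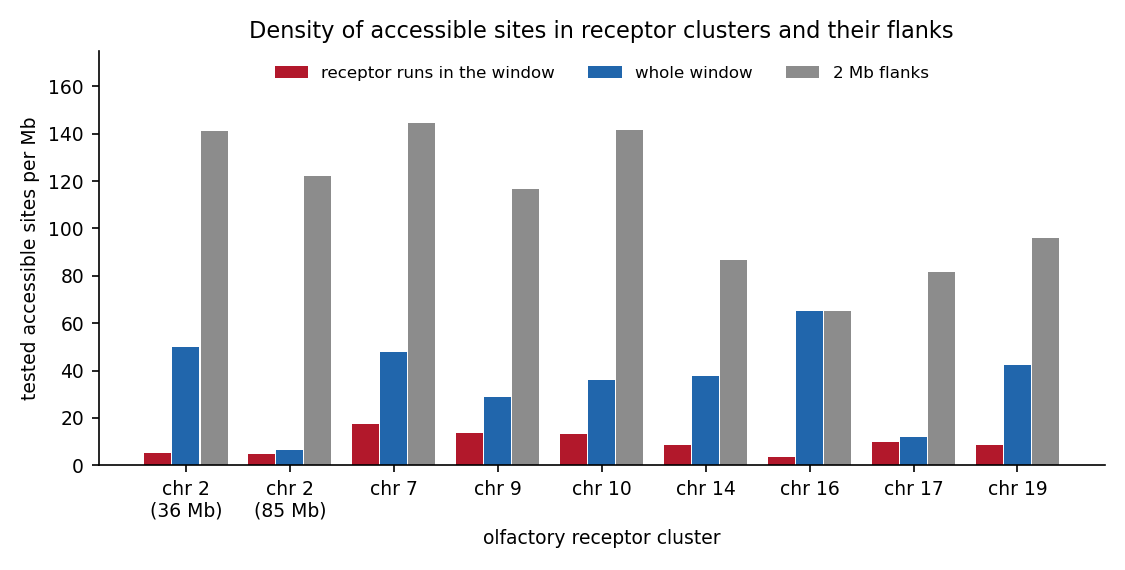
Tested accessible sites per Mb (vertical axis) in each of the 9 receptor clusters (horizontal axis), for the receptor runs in the window (red), the whole window (blue) and its 2 Mb flanks (grey). The red bars stay between 3.31 and 17.6 per Mb, and the grey bars between 65.25 and 144.5 per Mb.

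The base composition moved with the density. GC content was lower in the window than in its flanks in 8 of 9 clusters, with a median difference of -3.59 percentage points, and chromosome 16 was the exception at 0.57. The share of bases marked as repeats was higher in 9 of 9 windows, by a median of 12.3 points. How far sequence composition or the ease of aligning reads in repeated gene arrays sets the number of sites was not tested. Sites in the runs were also narrower and weaker. Their median width was 212 bp against 255 bp for all sites, and their median level was 9.78 reads in HAT1+/+ and 8.97 in HAT1-/- cells against 14.5 and 13.8. On average over the genotypes, 24.7% of the run sites reached 16 reads, compared with 44.7% of all sites.

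The study asked which regions lose accessibility without HAT1, and the receptor clusters were compared with their surroundings on that question. Over whole windows the medians were close to each other. The median difference of the 729 sites was -0.04 (95% interval -0.08 to 0), beside -0.07 in the 3780 flank sites and -0.06 over all sites. The windows kept 94.2% of their HAT1+/+ reads in HAT1-/- cells, the flanks 94.3% and the genome 94.8%. A lower level in every cell and a loss in a fraction of the cells cannot be told apart in these bulk values.

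By cluster, the window median lay below the flank median in 3, above it in 5 and level with it in 1 of the 9. The differences between window and flank ran from -0.26 to 0.18, with a median of 0.005. The lowest was on chromosome 17, a window of 32 receptor genes and 2 others, where 11 of 13 sites were below 0, the median was -0.33 (interval -0.74 to -0.14) and 78.5% of the reads were kept, against -0.07 and 92.6% in the flanks. The highest was on chromosome 19, where the median of 68 sites was 0.07 and that of the flanks -0.11. There 58 sites lay outside the receptor runs, with a median of 0.08. The 10 run sites went the other way, with a median of -0.195 (interval -0.91 to 0.50) and 7 below 0.

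The other 7 windows had medians between -0.15 (chromosome 10) and 0.04 (chromosome 14). In the chromosome 2 cluster at 85 Mb the median equalled that of the flanks at -0.07, but its interval was wide (-0.50 to 0.18) and 80.5% of the reads were kept against 94.0% in the flanks. The median over sites and the sum over reads thus gave different pictures of this cluster, in which 4 of the 32 sites were lower by at least 1. In the chromosome 2 cluster at 36 Mb, where 75 of the 80 sites lay outside the receptor run, 99.8% of the reads were kept.

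**Figure D2:**
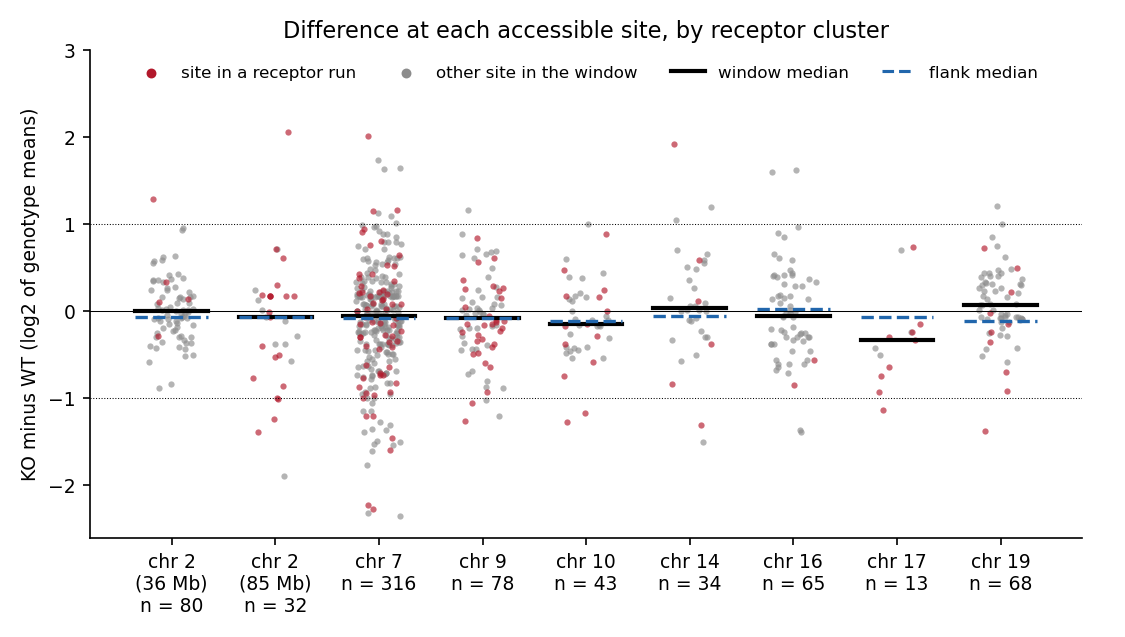
HAT1-/- (KO) minus HAT1+/+ (WT) level of every site, on the log2 scale of the genotype means (vertical axis), by cluster (horizontal axis, with the number of sites), for sites in receptor runs (red) and other sites of the window (grey). Black bars are window medians, dashed blue bars are flank medians and dotted lines mark differences of 1 and -1. The black and blue bars lie within 0.18 of each other in every cluster but chromosome 17.

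A site was called lower or higher when its difference was at most -1 or at least 1. In the windows 40 sites were lower (5.49%, 95% Wilson interval 4.06 to 7.39), beside 5.11% of all tested sites, and 20 were higher (2.74%, 1.78 to 4.20), beside 2.82% of all sites. Both shares are near those of the genome. The flanks had fewer lower sites, 108 of 3780 or 2.86%. The chromosome 7 window held 24 of the 40 lower sites and 9 of the 20 higher ones, but it also held 316 of the 729 sites. Its share of lower sites was 7.59% (interval 5.16 to 11.1), and the interval lies only just above the 5.11% of all tested sites. Its share of higher sites was 2.85%. Without the chromosome 7 window, 16 of 413 sites were lower (3.87%). Only 10 of the lower sites and 0 of the higher ones reached 16 reads on average. These were 3.05% and 0% of the 328 window sites at that level, beside 2.90% and 0.376% of all such sites.

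Sites in the receptor runs differed from the other sites of the same windows by a small amount. Their median difference was -0.15 (interval -0.27 to -0.05, n = 162), and that of the rest of the windows was -0.02 (-0.06 to 0.02, n = 567). The runs kept 84.4% of their HAT1+/+ reads and the rest of the windows 95.2%. In the runs 16 sites were lower (9.88%, interval 6.17 to 15.4) and 6 were higher (3.70%, 1.71 to 7.84). The share of lower sites in the runs was thus above the 5.11% of the genome, and the share of higher sites was near its 2.82%. The run median was below the flank median in 7 of 9 clusters, and lay between -0.71 (chromosome 16, 2 sites) and 0.14 (chromosome 2 at 36 Mb, 5 sites).

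Part of the background for this share moves with base composition and with read level. Most run sites (117 of 162) lay in surroundings of 200 kb with 37 to 41% GC. Among these, 9.40% were lower with a median of -0.16, and among all 42304 tested sites with that GC content 9.51% were lower with a median of -0.10. In that band the run sites were therefore lower about as often as all tested sites. From 41 to 46% GC 3 of 35 run sites were lower (8.57%, against 4.31% of all sites in that band). Under 37% GC 2 of 10 were lower (20%, against 26.5%). By read level the picture was mixed. From 8 to 16 reads 2 of 58 run sites were lower (3.45%, against 5.28% of all sites at that level), and from 16 to 32 reads 0 of 19 (against 3.89%). At 32 reads or more 4 of 21 were lower (19.0%, against 1.90%), and under 8 reads 10 of 64 (15.6%, against 9.64%). The 4 sites at 32 reads or more are the ones at Olfr658, Olfr1226 and Olfr877 described above and a site 7408 bases upstream of Olfr684 (chr7:105170846-105171277), named after its value was seen, which went from 5.83 to 4.63 on the log2 scale.

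In receptor runs that the windows left out, 184 sites had a median difference of -0.025 (interval -0.20 to 0.04) and kept 93.7% of the reads. The interval also holds the median of the runs inside the windows, and the difference between the sets was not tested. In runs of at least 10 genes the medians were -0.22 outside (57 sites) and -0.16 inside the windows (137 sites). In all runs outside the windows 14 sites were lower (7.61%, interval 4.59 to 12.4) and 16 were higher (8.70%, 5.42 to 13.7). The first interval holds the 5.11% of the genome, and the second lies above its 2.82%. All of these sites held under 16 reads. At that level 9.46% of 148 sites were lower, against 6.89% of all tested sites, and 10.8% were higher, against 4.80%. At 16 reads or more, however, the median was -0.19 in 36 sites outside the windows and -0.23 in 40 run sites inside them. Over all sites at that level it was -0.08. By at least 1, 0 of the 36 and 4 of the 40 (10%) were lower, beside 2.90% of all sites at that level. The difference between these small counts was not tested. The median difference in the runs thus varied with the level of the sites, inside and outside the windows.

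**Figure D3:**
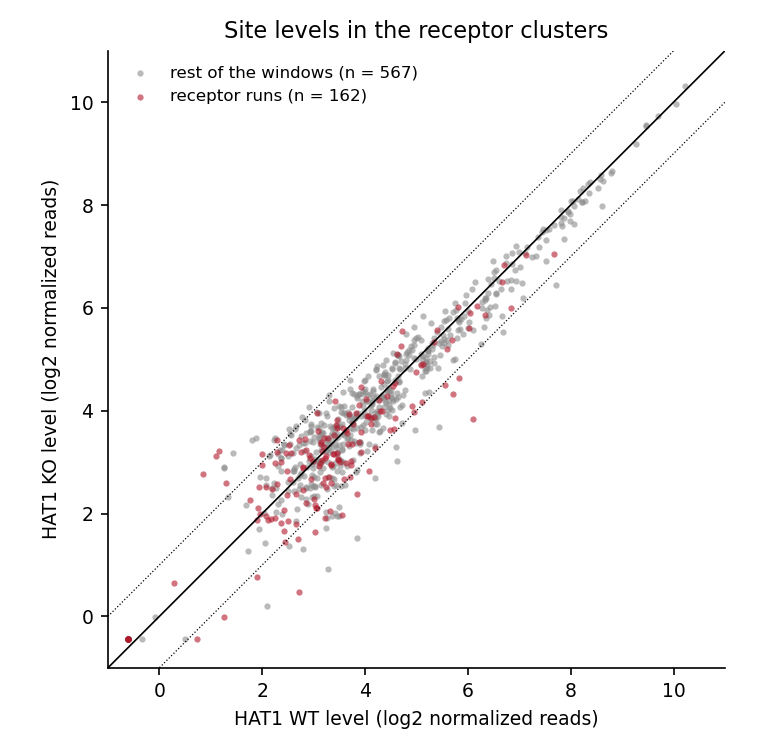
Level of each site in the receptor clusters in HAT1+/+ (horizontal axis) and HAT1-/- cells (vertical axis), both as log2 of mean normalized reads, for the 162 sites in receptor runs (red) and the 567 other sites (grey). The solid line marks equal levels and the dotted lines a difference of 1. Receptor run sites sit at low levels, with medians of 3.29 and 3.165, and of the sites with at least 32 reads 164 are grey and 21 red.

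The strongest sites in the receptor runs show how uneven the runs were. The strongest was an intergenic site 13688 bases upstream of Olfr545 (chr7:102512955-102513567), with 203.7 reads in HAT1+/+ and 132.5 in HAT1-/- cells (-0.62). The next, 2896 bases upstream of Olfr984 (chr9:40116740-40117465), held 140.1 and 130.7 reads (-0.10). The third, in an intron of Olfr543 (chr7:102479219-102480080), held 104.0 and 114.6 reads (0.14). They differed in size and in sign.

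On chromosome 7 the share of lower sites differed between segments, in a window where 7.59% of the 316 sites were lower, beside 5.11% of all tested sites. The low segments named here were picked by their medians, so their counts of lower sites follow in part from that choice. Grouping of the lower sites was not tested. In segments of 500 kb with at least 5 sites, the lowest median of the 30 segments in the windows was -0.87, from 104.5 to 105.0 Mb, where 6 of 13 sites were lower, 1 was higher and 53.7% of the reads were kept. This segment holds the Olfr658 site and the start of the run from Olfr665 to Olfr692, whose 13 sites had a median of -0.77 and kept 58.0% of the reads. Only 7 sites of the segment lay in receptor runs. Its strongest sites, in Trim30d and at the start of that gene, did not. They went from 134.4 to 73.5 and from 85.6 to 58.5 reads. The segment from 103.5 to 104.0 Mb, with the beta-like globin genes, kept 53.3% (median -0.47, 3 of 10 sites lower). That share rests largely on 1 strong site upstream of Hbb-y, in no receptor run, which went from 209.4 to 86.8 reads. Between these segments, from 104.0 to 104.5 Mb, 25 sites outside receptor runs had a median of -0.07 and kept 89.4%. Of these, 0 were lower.

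The rest of the chromosome 7 window varied. From 105.5 to 106.0 Mb 69 sites had a median of -0.03 and kept 98.5% of the reads, and the run from Olfr543 to Olfr549 had 14 sites with a median of 0.20 and kept 90.7%. Lower sites were also found from 107.5 to 108.0 Mb, where 6 of 56 were lower, the median was -0.06 and 87.7% of the reads were kept. From 106.0 to 106.5 Mb 68.2% were kept, but the median was 0.18 and 1 of the 24 sites was lower. Of these 24, 12 were at the lowest level in both genotypes. The run from Olfr557 to Olfr594 had a median of -0.27 over 6 sites and kept 80.8%. The only other segment of the windows with a median of -0.4 or less was on chromosome 17 from 37.5 to 38.0 Mb, with 6 receptor run sites, all below 0 (median -0.54). Such segments made up 3 of 30 in the windows and 532 of 4543 in the genome (11.7%), counting only segments with at least 5 sites. Sparser segments were left out, and segments at a window's edge count only their sites in the window. Of the chromosome 2 cluster at 85 Mb only the ends, from 85.0 to 85.5 and from 90.0 to 90.5 Mb, were counted. The shares therefore say little about the sparse receptor arrays. The highest segment, on chromosome 9 from 38.5 to 39.0 Mb, had a median of 0.42 over 12 sites.

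**Figure D4:**
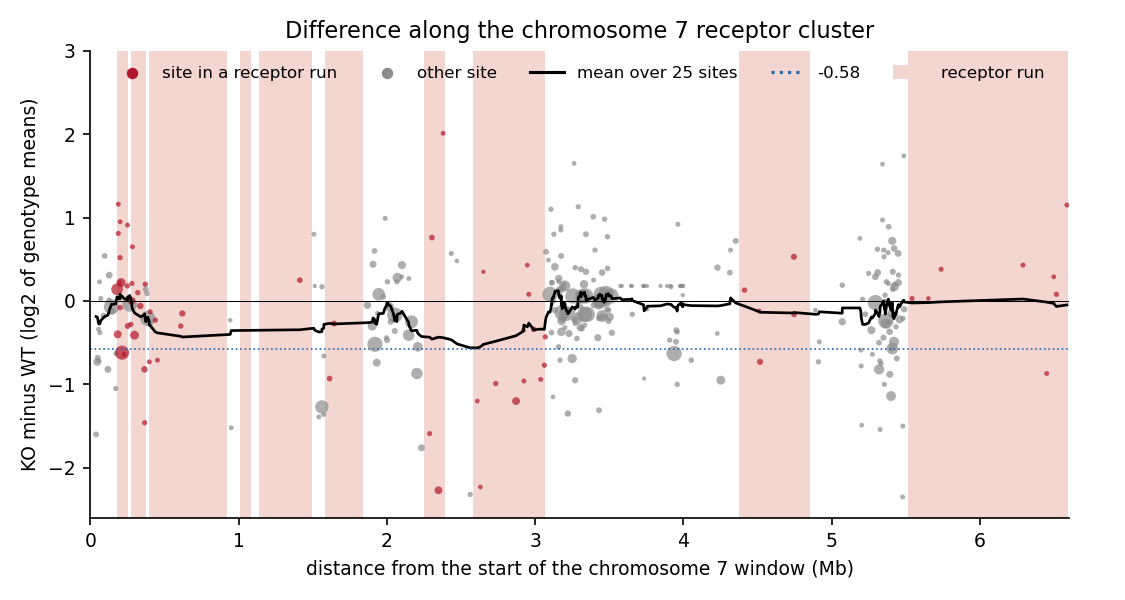
Difference of HAT1-/- (KO) minus HAT1+/+ (WT) level of each of the 316 sites (vertical axis, log2) along the chromosome 7 window (horizontal axis, distance from its start in Mb), with receptor runs shaded, sites in runs in red, other sites in grey and larger points for more reads. The black line is the mean over 25 sites, which reaches -0.56 near 2.6 Mb and does not cross the dotted line at -0.58.

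Large domains of lower accessibility can be traced with the moving mean of 25 sites, taken as low when it is under -0.58. None of the 729 sites of the receptor clusters was the centre of such a low mean, whereas 2.26% of all tested sites were, and 13 flank sites were, on chromosomes 2 and 16. The lowest value in the clusters was -0.56, on chromosome 7. With a mean of 15 sites 8 sites passed, all on chromosome 7, and with a mean of 51 sites 0 passed. A mean over 25 sites spans a long stretch where sites are sparse, so that in the runs it mixes receptor sites with those of neighbouring genes.

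Few receptor genes had an accessible start. A site within 1 kb of the annotated start was found for 21 of the 725 receptor genes in the windows (2.90%, Wilson interval 1.90 to 4.39) and for 24 of the 410 receptor genes outside them (5.85%, 3.97 to 8.56). Of the 115 other genes in the same windows 75 had one (65.2%), and of all other protein-coding genes of the genome 71.9%. The 25 sites at receptor starts in the windows included 14 on chromosome 7. They came from 21 genes, among them Olfr544, Olfr545, Olfr549 and Olfr556 with 2 sites each.

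The median difference of these start sites was -0.40 (interval -0.82 to -0.13), and 18 of 25 were below 0 (72.0%), beside 55.0% of all tested sites and 64.0% of the sites at the starts of other genes in the genome. By at least 1, 4 were lower (16%, interval 6.40 to 34.7), beside 5.11% of all sites and 1.5% of those at other gene starts, and 1 was higher. Other gene starts mostly had more reads. Under 16 reads 3 of 17 receptor start sites were lower, beside 4.88% of other gene start sites at that level. At 16 reads or more 1 of 8 was lower, beside 0.652%. Of the 4 lower sites, those at Olfr9 and Olfr763 held 1.21 and 1.68 reads on average. The 25 sites kept 75.4% of their reads, and 83.1% without the Olfr658 site, which alone accounted for 54.4 of the 137 reads lost. Sites at the starts of other genes in the windows had a median of -0.08 (-0.16 to 0, n = 85) and kept 96.7%, with 2 lower and 0 higher.

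The direction also varied with the level. At 16 reads or more, 8 of 8 receptor start sites were below 0, with differences from -2.27 to -0.15 and a median of -0.42, beside 40 of 63 at the starts of other genes in the windows (median -0.08). Outside the windows 3 of 4 such receptor start sites were below 0, with a median of -0.23. By the average over both genotypes, the 3 strongest receptor start sites in the windows were at Olfr957 (6.66 in HAT1+/+ and 6.50 in HAT1-/- cells on the log2 scale), Olfr1438-ps1 (6.05 and 5.90) and Olfr552 (6.02 and 5.61), with differences of -0.16, -0.15 and -0.41. In HAT1+/+ cells alone the Olfr658 site (6.10) was second to Olfr957. Of the sites under 16 reads in the windows 10 of 17 were below 0. The sites at Olfr544 and Olfr549, for example, had differences of 0.81 and 1.16 and of 0.18 and 0.91.

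**Figure D5:**
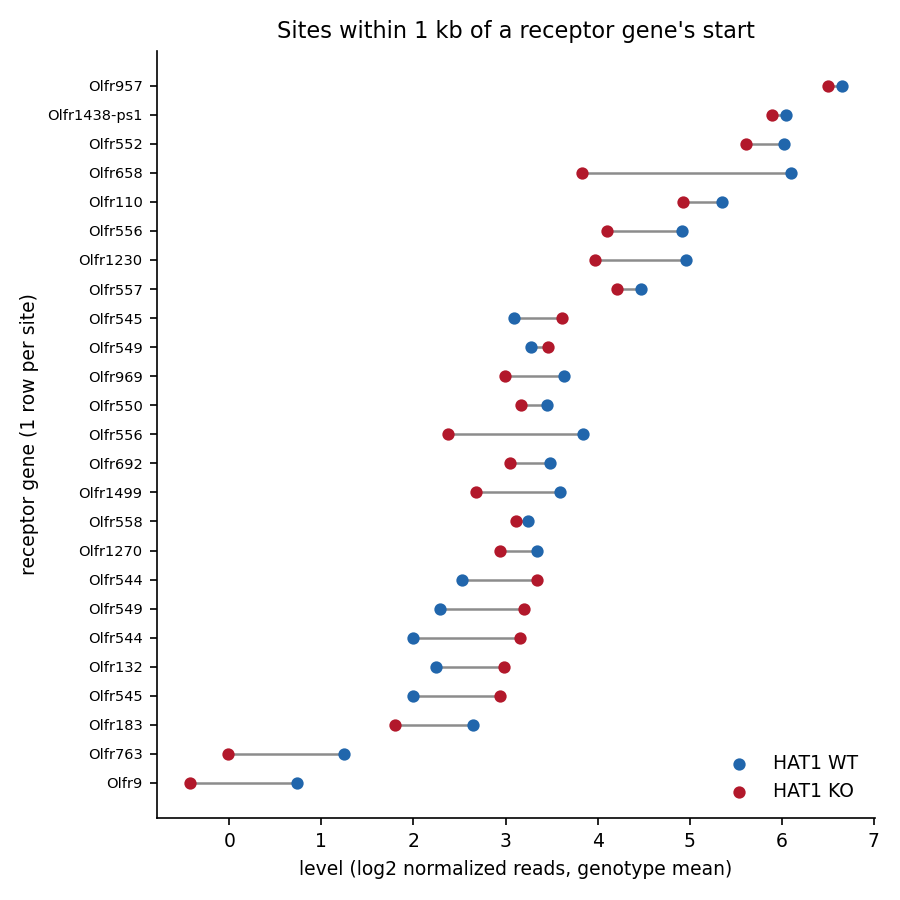
Level in HAT1+/+ (blue) and HAT1-/- cells (red) of the 25 sites within 1 kb of a receptor gene's start, as log2 of mean normalized reads (horizontal axis), 1 row per site with the strongest at the top and the gene named on the vertical axis. The red point lies to the left of the blue one in the upper 8 rows and in 18 of 25 rows in all.

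Sites inside receptor genes but away from their start numbered 41 in the windows, with a median of -0.24 (interval -0.40 to 0.21) and 4 lower (9.76%, interval 3.86 to 22.5, beside 5.11% of all tested sites) and 1 higher. Over all receptor genes of the genome the 151 such sites had a median of 0, with 9 lower and 9 higher (5.96% each). Sites inside other genes in the windows had a median of 0.02 over 284 sites.

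The windows also hold genes that are no receptors, between the receptor runs or at the window edges. The 85 sites at their starts ranged from -1.54 to 0.99. In each window that had one, the strongest site at the start of a gene that is no receptor was taken, which gave 8 sites. They were at Fam160a2 (1201 reads in HAT1+/+ and 1269 in HAT1-/- cells), Lpxn, a focal adhesion protein gene (1060 and 1003), Pdcl (826 and 849), Cldnd1 (704 and 755), Ccnb1ip1 (613 and 580), Rdh5, a retinol dehydrogenase gene (443 and 396), Zfp202, a zinc finger gene (298 and 267) and H2-M2, a class I histocompatibility gene (11.6 and 8.17). Each was named after the nearest gene start, although the Rdh5 site lay in an intron of Bloc1s1. Chosen for their level, 7 of the 8 had differences within 0.2 of 0, and the weak H2-M2 site was at -0.50.

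The gene families that share these windows behaved in different ways. Of 13 Trim genes, a family of ubiquitin ligases with antiviral members, 12 had a site at their start, and the 31 sites in or within 1 kb of these genes had a median of -0.07 with 0 called in either direction. The 5 beta-like globin genes had 2 sites. The weak site at the start of Hbb-bh2 went from 3.41 to 2.02 on the log2 scale (-1.39), and the other, at Hbb-bt, was at the lowest level of the table in both genotypes. A strong intergenic site 7967 bases upstream of Hbb-y, the embryonic globin gene (chr7:103860966-103861401), went from 7.71 to 6.44 (-1.27). It was singled out after its value was seen and lies in no receptor run. H2-M genes were represented by H2-M2 alone (2 sites, -0.50 and 0.70), and no gene of the Ms4a or of the Rnase and Ear lists had its start in the windows.

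The remaining extremes of the windows, among sites of at least 16 reads on average, were moderate. The lowest were at -0.50 near Lhx6 (chromosome 2 at 36 Mb), -0.54 near Itga7 (chromosome 10), -0.61 in an intron of Crybg3 (chromosome 16), -0.93 in an intron of Olfr111 (chromosome 17) and -0.43 in Dtx4 (chromosome 19). The highest were at 0.59 near Ptgs1, 0.13 near Lrrc55, 0.80 in Timm10b, 0.89 in an intron of Zfp202, 0.60 in an intron of Cd63, 0.59 near Tep1, 0.59 near Olfr172 and 0.47 near Pfpl. None of the highest reached 1, so that the well-covered sites past 1 were all lower in HAT1-/- cells. At that level 3.05% of the window sites were lower, beside 2.90% of all sites, and 0 were higher, beside 0.376%. Both shares are near those of the genome.

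Some sites carried almost no reads in either genotype. In the table as a whole the lowest level was -0.61 in HAT1+/+ and -0.43 in HAT1-/- cells, values shared by 1022 and 1139 sites. Both were at this lowest level in 24 of the 729 cluster sites (3.29%) and in 0.406% of all sites. Of the 24, 12 lay on chromosome 7 from 106.0 to 106.5 Mb, nearest to the starts of Gm4070 and of Gvin1, a gene for a large interferon-inducible GTPase, and 5 lay in the Olfr1214 to Olfr1272 run on chromosome 2. Their difference of 0.18 is fixed by the 2 lowest levels and carries no measurement. Without them the window median was -0.06 and the run median -0.16. How the authors' peak set came to include them was not tested.

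Short sequence motifs were counted in the 200 bases around the midpoint of each site, on both strands. TGANTCA, the AP-1 motif of fibroblast enhancers, was found in 23.5% of the receptor run sites and in 23.0% of all tested sites, and TGTGGT (RUNX) in 21.0% and 19.6%. GGAATG (TEAD) was found in 14.2% and 15.6%, AGGNGGC (part of the CTCF motif) in 16.7% and 16.4%, and CCAAT (NFY) in 25.9% and 21.8%. TAATTA, a core bound by homeodomain proteins such as LHX2, was found in 3.09% and 2.45%, and CCCNNGGG (EBF) in 5.56% and 7.32%. LHX2 and EBF proteins act at receptor enhancers in olfactory neurons. The letters in the run sites were thus close in frequency to those of accessible sites anywhere in these fibroblasts. A match of letters shows no binding, and the motifs can overlap by chance.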

How the data were processed

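Per the labels, primary MEFs from HAT1+/+ and HAT1-/- embryos (3 lines each) were profiled by ATAC-Seq. Alignment to mm10 followed the ENCODE pipeline for ATAC-Seq, per the authors' methods. Their processing notes name Bowtie2, MACS2 and DiffBind 2.14.0. The rule that merged peaks and the normalization between lines are not given in the sources used here. The deposited table gives, for each site, a log2 level per genotype, which the authors averaged over the normalized reads of the lines. These 2 columns were used. The columns that hold the authors' comparison (fold change, p-value and false discovery rate) were left out, and no value per line was used, so no spread, test or replicate analysis was made and the depth per line is unknown.

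The difference is the HAT1-/- minus the HAT1+/+ log2 level. Reads are 2 to the power of a level, and reads kept is the ratio of their sums. Flanks are the 2 Mb beside each window outside all windows, cut at the chromosome end on chromosome 10 (2.59 Mb in all). Genes and exons came from GENCODE vM21 and sequence from GRCm38.p6, whose chromosome lengths were checked against the sites. Intervals of medians are from order statistics. Named are the lowest and the highest site per window with at least 16 average reads, the 3 strongest run sites, the 3 strongest receptor start sites and the strongest start site of another gene per window, and others are said to be chosen after their values were seen. The work was done in Python 3.11.15 with scipy 1.17.1, numpy 2.4.6 and pandas 2.3.3 and drawn with matplotlib 3.10.9, and the medians, calls and moving means were tested on simulated data. The windows, lists and tests were chosen with earlier results of these data known.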

Additional observations from a re-analysis of the deposited data

How the results depend on the processing

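Of 37 alternatives over 10 results, 24 stayed within the interval of the value reported, or within 1.5 times a count, and 13 moved. The alternatives that left out chromosome 7 or the sites at the lowest level (7 of the 37) were added after the data were seen. No line could be left out, and no paired analysis was possible because the values are genotype means. The window median of -0.04 became 0.02 after the genome median was subtracted. The counts of 40 lower and 20 higher sites became 106 and 83 at a limit of 0.58. These were 14.5% and 11.4%, beside 14.99% and 10.1% of all sites. The counts became 10 and 0 at 16 reads or more (3.05% and 0%, beside 2.90% and 0.376% of all such sites). Without chromosome 7 they became 16 and 11 (3.87% and 2.66%, beside 5.11% and 2.82% of all sites). The reads kept (94.2%) became 84.4% in the receptor runs, 93.7% at 16 reads or more and 96.4% without chromosome 7. The interval used here, 93.9 to 94.5%, treats the HAT1-/- reads as a part of the HAT1+/+ reads, which they are not. Counting these values as moved therefore carries little weight. The ratio of site densities became 0.277 at 16 reads or more. The median of the runs outside the windows became -0.22 in runs of at least 10 genes (57 sites), and the count of low moving means became 8 with 15 sites. The median difference between window and flank stayed within its interval, but turned to -0.026 with means, -0.025 without the sites at the lowest level and -0.075 for run sites alone (7 of 9 clusters below 0). The median of the run sites ranged from -0.23 to -0.09 over its alternatives. Most sites rest on few reads, which limits every value given for a single site.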
